A study of Mus musculus with 22 samples.

Results

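The myeloid activation and lysosome genes described here, measured on arrays of the mouse hypothalamus after celastrol, are Ly86, Ctss, Itgam, Wfdc17, Cd68, Trem2, Tyrobp, Lgals3, Laptm5 and Aif1. They number 10 of the 18704 genes that the arrays named by a single symbol, and each was taken from the probe set of its own symbol, dim ones kept. Itgam is also named, together with Rpl35, on 3 brighter probe sets (mean log2 intensities of 12.22 to 12.32), which were not used. The 10 were chosen with measured values in view, and so were in part selected on their celastrol minus DMSO differences at 6 h, 1 day and 4 days. Those differences are therefore a description and carry no test. Of the 10, 7 passed the filter on level and 3 (Itgam, Wfdc17 and Aif1) were dim on all 22 arrays, that is, below the array's median. Of the 7, 6 lay above the median on all 22 arrays and Lgals3 did on 4.

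The study measured hypothalamic RNA of lean male C57BL/6J mice on 22 arrays, 1 array a sample. Celastrol is a pentacyclic triterpenoid of the thunder god vine that lowers food intake in obese mice. All mice were 8 weeks old, with no genetic change named in the labels, and had been kept on normal chow for 2 weeks. The vehicle mice received dimethyl sulfoxide (DMSO, 25 µl per day) by intraperitoneal injection for 6 h, 1 day or 4 days, with 4 arrays at each time. The celastrol mice received celastrol dissolved in DMSO by the same route for the same times, with 4 arrays at 6 h and 3 at either later time. A dose of 250 µg per kg stands beside the 6 h treatment, and no source used here gives the dose at 1 day or 4 days. The samples are labelled biological replicates. All mice were lean, and the labelled tissue is a whole brain region in which microglia are a minority, so every value is an average over many cell types. The melanin-concentrating hormone gene Pmch and the orexin gene Hcrt, which mark lateral hypothalamic neurons, had mean log2 intensities of 12.96 and 12.85, well inside the upper part of the range of 3.83 to 15.2 over all probe sets. Array medians lay between 8.58 and 8.66, and each array correlated with the others of its group at 0.9945 to 0.9977 on average over all probe sets.

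Microglia, the resident macrophages of the brain, carry surface receptors that read lipids, microbial products and complement, and a large endolysosomal system that degrades what they take up. Trem2 is a lipid-sensing receptor without a signalling tail of its own, and it signals through the adaptor DAP12, encoded by Tyrobp. Ly86 encodes MD-1, the secreted partner of the Toll-like receptor relative CD180. Itgam encodes CD11b, the alpha chain of complement receptor type III. Ctss encodes cathepsin S, a lysosomal cysteine protease that trims the invariant chain of MHC class II, Cd68 a heavily glycosylated lysosomal membrane protein, and Laptm5 a lysosomal membrane protein of blood-lineage cells. Wfdc17 encodes a small secreted WAP domain protein made by activated macrophages, Lgals3 the galactoside-binding lectin galectin-3, and Aif1 the actin-binding protein IBA1, the common histological marker of microglia.

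Many genes of macrophages are read under PU.1, the ETS-family factor of the myeloid lineage. The 250 bases before the RefSeq start of each gene (build GRCm38.p6, each 5′ to 3′ on the gene's own strand) were searched for its core GAGGAA on both strands, where a match on the other strand reads TTCCTC. Promoter sequences were found for 9 of the 10 genes, Tyrobp being the one without an entry. The core was in 7 of 9 windows, against 23.3% of 32851 promoter windows of the same length. The palindrome TTCNNNGAA, read by STAT factors, was in 0 of 9 windows (7.02% of all windows), and TCACGTGA, the centre of the lysosomal CLEAR element, was in 0 of 9 (0.785% of all windows). In the 9 windows no match overlapped another. The windows of 6 genes are shown: the 4 whose celastrol arrays at 4 days lay above all vehicle arrays (Ly86, Ctss, Itgam and Wfdc17), and Trem2 and Lgals3, whose groups overlapped. Capitals mark the PU.1 core.
Ly86, chr13:37345095-37345344, plus strand: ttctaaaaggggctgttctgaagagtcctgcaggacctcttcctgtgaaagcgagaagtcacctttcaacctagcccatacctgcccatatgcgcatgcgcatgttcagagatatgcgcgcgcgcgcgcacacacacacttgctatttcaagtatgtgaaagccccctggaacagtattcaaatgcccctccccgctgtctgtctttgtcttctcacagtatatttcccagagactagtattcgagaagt
Ctss, chr3:95526536-95526785, plus strand: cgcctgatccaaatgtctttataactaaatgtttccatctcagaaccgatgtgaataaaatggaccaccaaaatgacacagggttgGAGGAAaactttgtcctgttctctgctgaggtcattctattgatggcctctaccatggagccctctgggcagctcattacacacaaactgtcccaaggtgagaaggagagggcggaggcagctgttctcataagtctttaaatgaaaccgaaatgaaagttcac
Itgam, chr7:128062390-128062639, plus strand: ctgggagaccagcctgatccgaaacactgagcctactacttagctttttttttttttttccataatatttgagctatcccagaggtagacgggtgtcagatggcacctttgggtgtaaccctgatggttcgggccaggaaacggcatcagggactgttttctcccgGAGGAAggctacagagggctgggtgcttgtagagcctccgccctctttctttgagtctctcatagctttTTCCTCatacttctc
Wfdc17, chr11:83703806-83704055, plus strand: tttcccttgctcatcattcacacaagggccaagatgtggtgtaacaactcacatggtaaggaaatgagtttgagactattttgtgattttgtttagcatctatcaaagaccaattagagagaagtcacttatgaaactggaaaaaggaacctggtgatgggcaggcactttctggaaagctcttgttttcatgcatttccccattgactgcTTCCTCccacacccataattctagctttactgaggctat
Trem2, chr17:48346151-48346400, plus strand: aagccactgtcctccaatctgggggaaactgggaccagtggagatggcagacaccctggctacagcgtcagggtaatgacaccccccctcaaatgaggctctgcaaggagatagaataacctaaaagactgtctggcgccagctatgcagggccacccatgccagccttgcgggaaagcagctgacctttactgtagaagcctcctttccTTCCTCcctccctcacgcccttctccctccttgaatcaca
Lgals3, chr14:47373610-47373859, plus strand: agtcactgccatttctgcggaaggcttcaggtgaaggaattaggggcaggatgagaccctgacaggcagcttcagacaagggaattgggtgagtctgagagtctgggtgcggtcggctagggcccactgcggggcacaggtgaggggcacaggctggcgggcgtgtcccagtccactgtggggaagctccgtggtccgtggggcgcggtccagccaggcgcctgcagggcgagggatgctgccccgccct
The core lay 159 to 164 bases before the start in Ctss, 79 to 84 and, on the other strand, 10 to 15 in Itgam, 34 to 39 on the other strand in Wfdc17, and 35 to 40 on the other strand in Trem2. The windows of Ly86 and Lgals3 held no match. So a window with the core and a window without it were found both among the genes above all vehicle arrays and among those whose groups overlapped. The windows of Cd68 (220 to 225 bases before the start), Laptm5 (33 to 38, other strand) and Aif1 (2 to 7, other strand) also held it and are not shown. A match is a string of letters and does not show that the factor bound there.

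At 4 days, 7 of the 10 genes had every celastrol array higher than every DMSO array of the same time, and 0 had every one lower. Over all 18704 genes, dim ones kept, this held for 4.03% above and 2.02% below. Since these differences helped to choose the 10, nothing is read from that gap. The median difference of the 10 was 0.17 on the log2 scale at 4 days, with 9 higher and a range of -0.03 to 0.65, beside a median of 0.01 over all genes. At 6 h it was 0.03 with 7 higher, and at 1 day -0.02 with 4 higher. In Ly86, Ctss, Itgam and Wfdc17 the celastrol arrays were clear of every vehicle array of any time, in Tyrobp, Laptm5 and Aif1 they were clear of the vehicle arrays of the same time but not of all 12, and in Cd68, Trem2 and Lgals3 they overlapped those. In tissue RNA, fewer or more cells of a type and less or more RNA per cell cannot be told apart, and this holds for every value here.

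**Figure D1:**
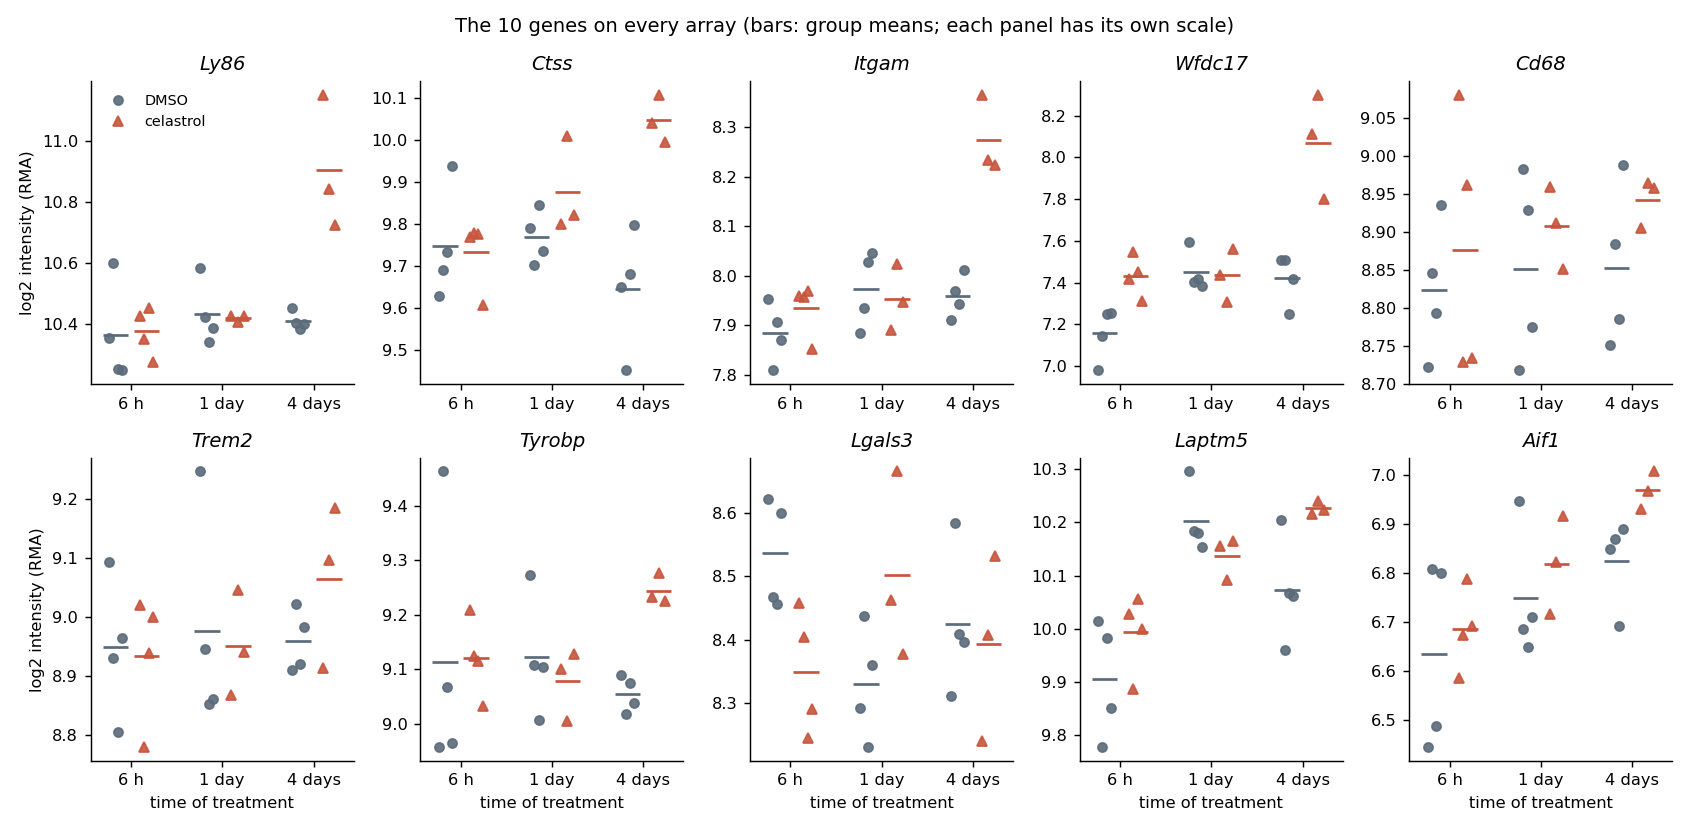
Log2 intensity (RMA) of each of the 10 genes on every array, by time of treatment, with DMSO arrays as grey circles, celastrol arrays as red triangles and bars at the group means (4 arrays a group, 3 for celastrol at 1 day and 4 days). The celastrol arrays at 4 days stand above all other arrays in Ly86, Itgam and Wfdc17, and among the DMSO arrays in Cd68, Trem2 and Lgals3. Each panel has its own axis, which does not start at 0.

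Of the receptor-side genes, Ly86 gave the widest separation. At 4 days its log2 intensity was 10.45, 10.40, 10.38 and 10.40 on the DMSO arrays and 11.15, 10.84 and 10.73 on the celastrol arrays. Every celastrol array was above every DMSO array, and the vehicle arrays lay within a narrow band. The means were 10.41 ± 0.03 (SD, n = 4) and 10.91 ± 0.22 (SD, n = 3), a difference of 0.50 (SE 0.13, from the SDs of both groups, as for all 10 genes), or 1.41-fold. The celastrol spread was the larger one, set by the array at 11.15. At 6 h the values were 10.35, 10.60, 10.25 and 10.25 with DMSO and 10.43, 10.35, 10.45 and 10.28 with celastrol, and at 1 day 10.58, 10.42, 10.34 and 10.39 against 10.43, 10.41 and 10.43. At both earlier times the celastrol arrays sat among the DMSO arrays, and the differences were 0.01 (SE 0.09) and -0.01 (SE 0.05).

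Itgam, although dim, had a small spread. Its DMSO arrays at 4 days read 7.91, 7.97, 7.94 and 8.01 and its celastrol arrays 8.37, 8.23 and 8.22. Again no celastrol array reached down to a vehicle array. The means were 7.96 ± 0.04 (SD, n = 4) and 8.27 ± 0.08 (SD, n = 3), a difference of 0.32 (SE 0.05), or 1.25-fold. At 6 h the DMSO arrays read 7.95, 7.81, 7.91 and 7.87 and the celastrol arrays 7.96, 7.96, 7.97 and 7.85. There 3 of the 4 celastrol arrays were just above the highest vehicle array and the remaining one was the second lowest of all 8. At 1 day the groups overlapped, at 7.88, 7.93, 8.03 and 8.05 against 7.89, 8.02 and 7.95.

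The receptor Trem2 and its adaptor Tyrobp are described together. Tyrobp read 9.09, 9.02, 9.07 and 9.04 with DMSO and 9.23, 9.28 and 9.23 with celastrol, so the groups were apart. The difference was 0.19 (SE 0.02), or 1.14-fold, the smallest standard error among the 10. Trem2 read 8.91, 9.02, 8.92 and 8.98 with DMSO and 8.91, 9.10 and 9.18 with celastrol, where the lowest celastrol array and the lowest vehicle array both read 8.91. Its difference was 0.11 (SE 0.08), or 1.08-fold. The difference between the genes was not tested. In Tyrobp 1 vehicle array at 6 h read 9.46 and 1 at 1 day 9.27, both high for their groups, where the others read 8.96 to 9.07 and 9.01 to 9.11. The celastrol arrays read 9.21, 9.13, 9.11 and 9.03 at 6 h and 9.10, 9.004 and 9.13 at 1 day. Those of 6 h lay inside the vehicle range and those of 1 day overlapped it, the lowest falling just below the lowest vehicle array at 9.007, with differences of 0.01 (SE 0.13) and -0.05 (SE 0.07). In Trem2 the vehicle arrays spanned 8.81 to 9.09 at 6 h and 8.85 to 9.25 at 1 day, and the celastrol arrays 8.78 to 9.02 and 8.87 to 9.05. The differences at those times were -0.01 (SE 0.08) and -0.03 (SE 0.11), within the spread of either group.

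**Figure D2:**
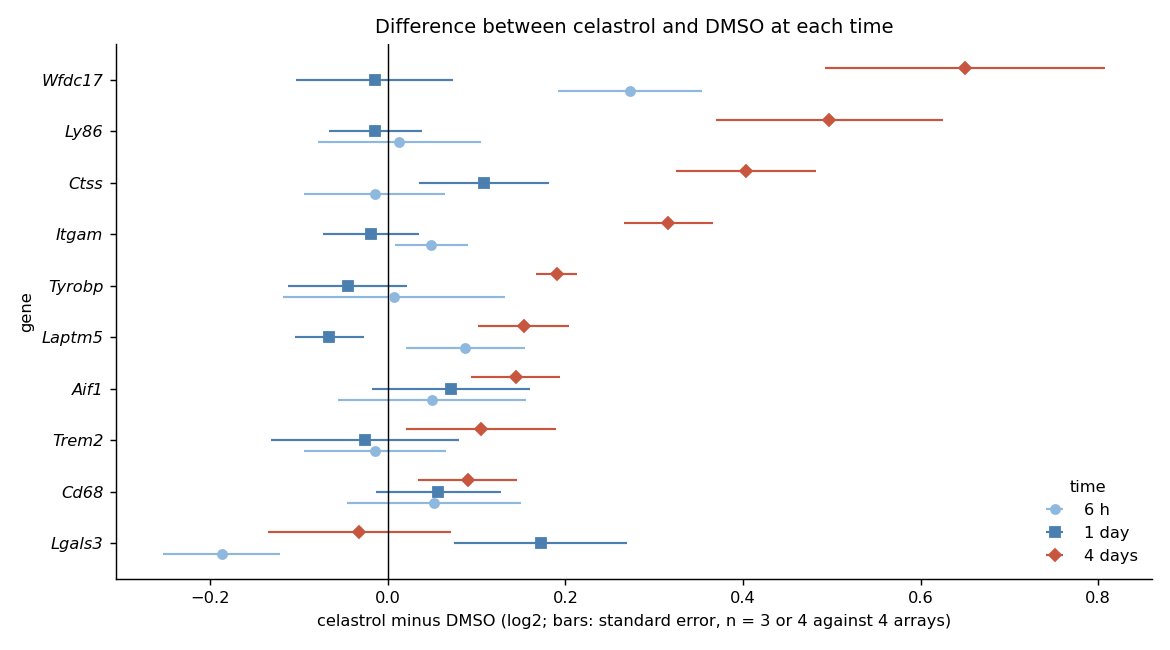
Celastrol minus DMSO on the log2 scale (horizontal axis) for each gene (vertical axis) at 6 h, 1 day and 4 days; points are differences of group means and bars their standard errors, from 4 DMSO arrays against 4 celastrol arrays at 6 h and 3 at 1 day and 4 days. The differences at 4 days run from -0.03 in Lgals3 to 0.65 in Wfdc17, and Wfdc17 and Lgals3 also lie farthest from 0 at 6 h, at 0.27 and -0.19.

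The lysosomal genes were led by Ctss, the cathepsin S gene. At 4 days its DMSO arrays read 9.65, 9.45, 9.68 and 9.80 and its celastrol arrays 10.04, 10.11 and 9.996. The celastrol arrays were all higher and closer together than the vehicle arrays. The means were 9.65 ± 0.14 (SD, n = 4) and 10.05 ± 0.06 (SD, n = 3), a difference of 0.40 (SE 0.08), or 1.32-fold. The vehicle mean at 4 days was the lowest of the 3 vehicle means, which were 9.75 at 6 h and 9.77 at 1 day. At 1 day the DMSO arrays read 9.79, 9.70, 9.84 and 9.74 and the celastrol arrays 9.80, 10.01 and 9.82. All 3 celastrol arrays were above the vehicle mean but only 1 was above all vehicle arrays, and the difference was 0.11 (SE 0.07). At 6 h the groups overlapped at 9.63, 9.69, 9.73 and 9.94 against 9.77, 9.78, 9.78 and 9.61.

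Laptm5 separated by a thin margin. At 4 days it read 10.20, 9.96, 10.07 and 10.06 with DMSO and 10.22, 10.24 and 10.22 with celastrol. The lowest celastrol array was 0.01 above the highest vehicle array, and the difference was 0.15 (SE 0.05), or 1.11-fold. At 1 day the order of the means was the other way: 10.30, 10.18, 10.18 and 10.15 with DMSO against 10.16, 10.09 and 10.17 with celastrol, where all 3 celastrol arrays were below the vehicle mean but not below all vehicle arrays. At 6 h the vehicle arrays read 10.01, 9.78, 9.98 and 9.85 and the celastrol arrays from 9.89 to 10.06 with a median of 10.01, a difference of 0.09 (SE 0.07). Cd68 did not separate at any time. At 4 days it read 8.75, 8.88, 8.79 and 8.99 with DMSO and 8.91, 8.96 and 8.96 with celastrol, and its highest array was a vehicle array. Its differences were 0.05 (SE 0.10), 0.06 (SE 0.07) and 0.09 (SE 0.06) at 6 h, 1 day and 4 days.

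Of the secreted and cytosolic genes, Wfdc17 showed the highest difference of the 10 and is dim. At 4 days its DMSO arrays read 7.51, 7.51, 7.25 and 7.42 and its celastrol arrays 8.11, 8.30 and 7.80. All celastrol arrays were above all vehicle arrays, with a wide spread among themselves. The means were 7.42 ± 0.12 (SD, n = 4) and 8.07 ± 0.25 (SD, n = 3), a difference of 0.65 (SE 0.16), or 1.57-fold. Wfdc17 was also the 1 gene of 10 whose celastrol arrays were all above its DMSO arrays at 6 h, where 1.53% of all genes were so placed and 1.2% were all below. There the vehicle arrays read 6.98, 7.14, 7.25 and 7.26 and the celastrol arrays 7.42, 7.55, 7.45 and 7.31. The celastrol arrays at 6 h spanned 7.31 to 7.55, and the vehicle arrays of 1 day and 4 days 7.25 to 7.60. The cause of the difference at 6 h was not tested. At 1 day the groups overlapped, at 7.60, 7.40, 7.42 and 7.38 against 7.43, 7.31 and 7.56.

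Lgals3 gave no separation at any time, and its difference changed sign between times. At 6 h the DMSO arrays read 8.62, 8.47, 8.46 and 8.60 and the celastrol arrays 8.46, 8.40, 8.24 and 8.29. All 4 celastrol arrays were below the vehicle mean, and the highest of them and the lowest vehicle array both read 8.46. The difference was -0.19 (SE 0.07). At 1 day the values were 8.29, 8.44, 8.23 and 8.36 against 8.46, 8.67 and 8.38, a difference of 0.17 (SE 0.10) with 2 of 3 celastrol arrays above all vehicle arrays. At 4 days they were 8.31, 8.58, 8.41 and 8.40 against 8.24, 8.41 and 8.53, and the difference was -0.03 (SE 0.10). Aif1, the IBA1 gene, read 6.85, 6.87, 6.69 and 6.89 with DMSO and 6.93, 6.97 and 7.01 with celastrol at 4 days. The groups were apart by 0.04, and the difference was 0.14 (SE 0.05), or 1.11-fold. At 6 h its vehicle arrays spread from 6.44 to 6.81 and the celastrol arrays from 6.59 to 6.79, and at 1 day from 6.65 to 6.95 and from 6.72 to 6.92. At 1 day none of the 10 genes separated in either direction, where 2.15% of all genes were all above and 3.06% all below.

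A stricter description sets the 3 celastrol arrays of 4 days against all 12 vehicle arrays. By it 4 of the 10 genes stayed apart, beside 131 of 18704 genes (0.7%): Wfdc17 by 0.20, Itgam by 0.18, Ly86 by 0.13 and Ctss by 0.06 on the log2 scale. Ly86, Itgam and Wfdc17 were also above the celastrol arrays of 6 h and 1 day, so their 3 arrays were the highest of all 22. Ctss missed this by 1 array, the celastrol array of 1 day at 10.01. The share of all genes placed above all other arrays was not counted, so nothing is read from this placing. For Laptm5 and Aif1 the 3 arrays were above 11 of the 12 vehicle arrays, for Tyrobp above 10, for Cd68 above 8, for Trem2 above 4 and for Lgals3 above 1.

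**Figure D3:**
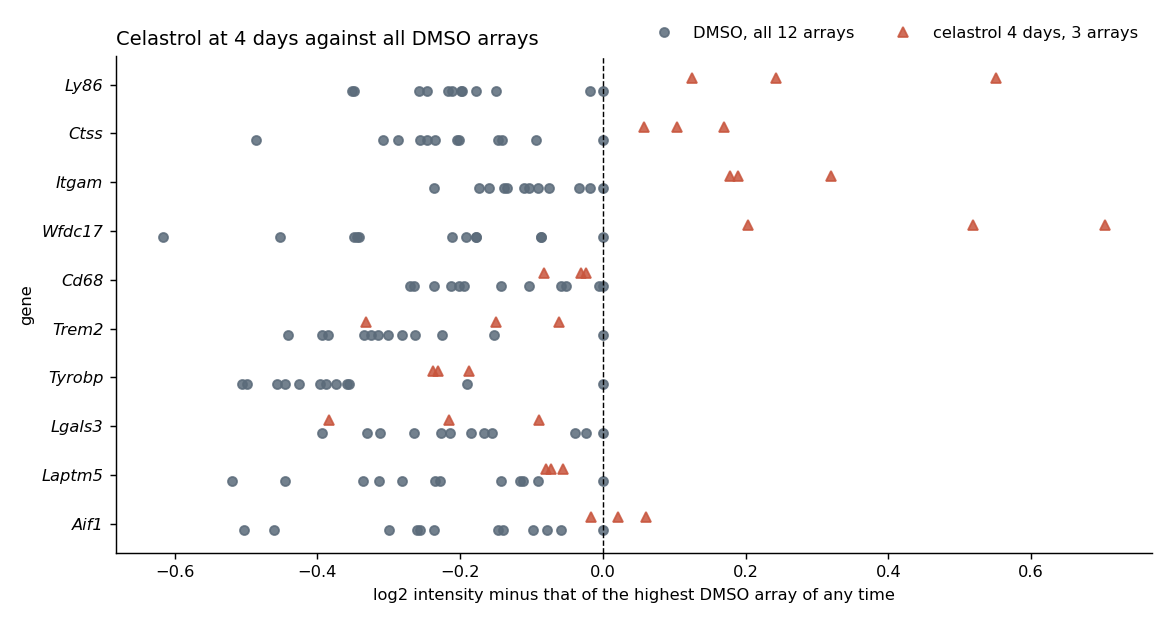
Log2 intensity minus that of the highest DMSO array of any time (horizontal axis), for each gene (vertical axis), with all 12 DMSO arrays as grey circles and the 3 celastrol arrays of 4 days as red triangles. Red triangles right of the dashed line exceed every DMSO array, as all 3 do in Ly86, Ctss, Itgam and Wfdc17.

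The vehicle arrays were also compared between times. These comparisons use the same DMSO arrays as the differences above. Tests between times used limma's moderated test with Benjamini-Hochberg adjustment over 9880 genes, and covered the 7 genes above the filter. The test called 0 of the 7 between any pair of times, and 2, 1 and 1 had an unadjusted p under 0.05 for 1 day against 6 h, 4 days against 6 h and 4 days against 1 day. Over all tested genes the same comparisons called 0.0%, 0.253% and 0.152%, and 14.1%, 15.3% and 14.7% had an unadjusted p under 0.05 (1389, 1507 and 1448 genes). Laptm5 came closest. Its vehicle mean was 9.91 at 6 h and 10.20 at 1 day, with all 1-day arrays above all 6 h arrays, a difference of 0.30 (SE 0.06, limma adjusted p = 0.0593). Over 34 alternative settings its limma adjusted p ran from 0.0199 to 0.334, and it was called in 8 of them. Among these were the settings without DMSO 6 h replicate 3 (adjusted p = 0.0392), without celastrol 6 h replicate 1 (0.0425) and without celastrol 4 days replicate 2 (0.0464). Over all tested genes the 34 settings called 0 to 46 in this comparison. Lgals3 was lower at 1 day than at 6 h on all vehicle arrays, by a log2 difference of -0.21 (SE 0.07, limma adjusted p = 0.221). It passed the filter of 3 arrays only with DMSO 6 h replicates 1 and 4 (8.62 and 8.60, at array medians of 8.58 and 8.59). That is the group where it was high, so nothing is read from its p, which is 1 of the 2 unadjusted ones under 0.05. Wfdc17, dim and so outside the test, was higher at 1 day than at 6 h on all vehicle arrays, 7.45 against 7.16, with a limma adjusted p of 0.348 when no filter was applied. The vehicle means of Cd68 and Trem2 stayed within 0.03 of each other across the 3 times. For Wfdc17, Lgals3 and Laptm5 the vehicle groups of 6 h and 1 day thus did not overlap, 2 of the 10 genes being all above at 1 day and 1 all below, where 3.19% and 1.18% of all genes were so placed. Of these, Wfdc17 and Lgals3 are the genes whose celastrol difference was farthest from 0 at 6 h. Both kinds of difference use the vehicle arrays of 6 h, and a link between them was not tested.

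The wider programme was described by 11 lists of partner and pathway genes that hold none of the 10. They named 176 genes, of which 161 were measured and 70 passed the filter. By limma with Benjamini-Hochberg adjustment over 9880 genes, 0 of the 70 were called at 6 h, 1 day, 4 days or on the average of the 3 times. At an unadjusted p under 0.05 there were 4 higher and 0 lower at 6 h, 0 and 3 at 1 day, 11 and 0 at 4 days, and 7 and 1 on the average. The same test called 0.0% of all tested genes at 6 h, 0.0% at 1 day, 0.0506% at 4 days (5 genes) and 0.0607% on the average (6 genes). Of all tested genes 505 (5.11%), 658 (6.66%), 362 (3.66%) and 395 (4.0%) had an unadjusted p under 0.05 in these comparisons. With no filter on level 0 of the 161 were called at any time, and 25 had an unadjusted p under 0.05 at 4 days, beside 753 of all 18704 genes (4.03%). At 4 days 26 of the 161 (16.1%) had all celastrol above all DMSO arrays and 0 all below, beside 4.03% and 2.02% of all genes. At 6 h the counts were 3 and 0, and at 1 day 4 and 6. Above all 12 vehicle arrays were 11 of the 161 (6.8%), namely Csf1r, Fcrls, Cd33, Fcgr2b, Cd180, Tlr7, Ctsc, Lcp1, Arpc1b, Dock2 and Ptprc. The lists were written with earlier results of these data known, their genes share cell types, and these shares were not tested.

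**Figure D4:**
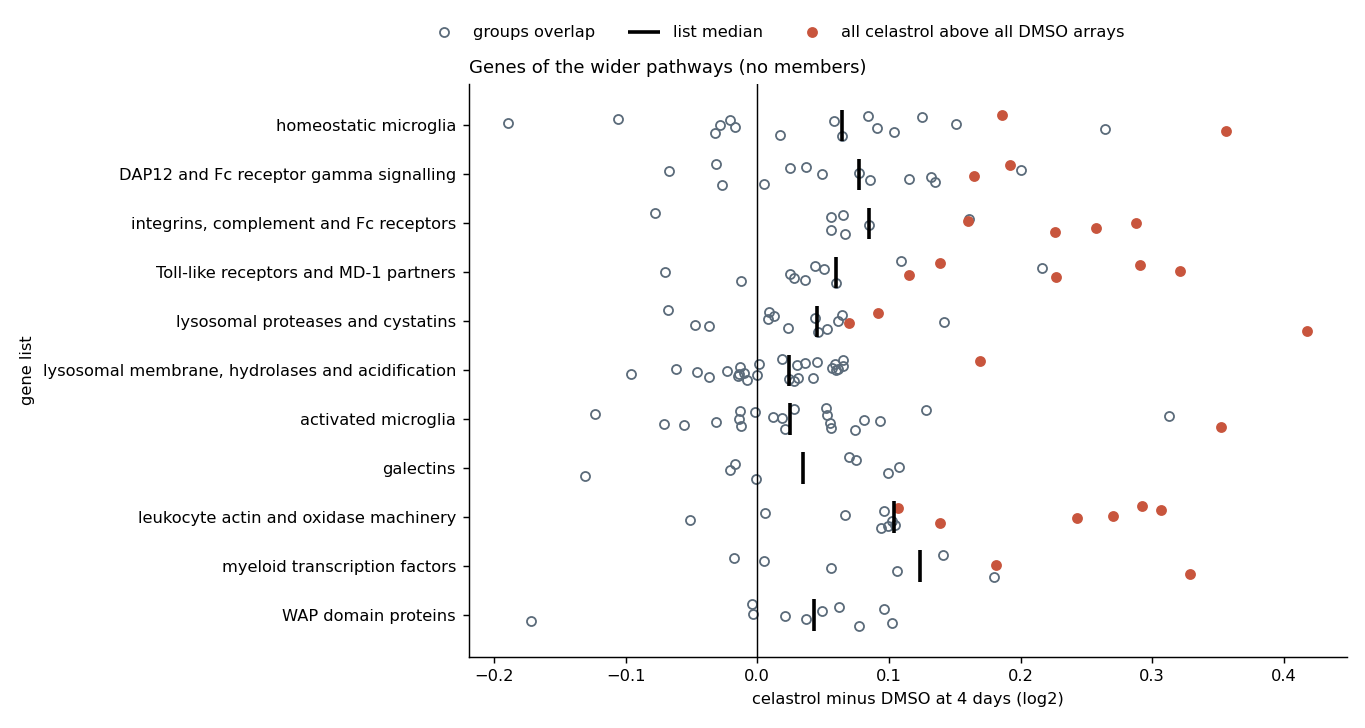
Celastrol minus DMSO at 4 days on the log2 scale (horizontal axis) for the measured genes of each list (vertical axis, 3 celastrol and 4 DMSO arrays). Filled red points are genes whose celastrol arrays all lie above the DMSO arrays, open circles genes whose groups overlap, and black bars the list medians, which run from 0.02 to 0.12; no gene of these lists passed the adjusted test.

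The partners of the receptor-side genes gave these values at 4 days. Cd180, the receptor that MD-1 binds, is dim and was picked out after its values were seen: its celastrol arrays lay at 8.19 to 8.38 and its DMSO arrays at 7.99 to 8.18, a difference of 0.14 (SE 0.09). Of the 15 measured Toll-like receptor and MD-1 partner genes, none passed the filter and 5 had groups apart, with a median of 0.06. Among the 5 were Tlr7, an endosomal receptor for single-stranded RNA (0.32, SE 0.11), and Irak3, an inhibitory kinase of the pathway (0.23, SE 0.06). Itgb2, the beta chain that pairs with CD11b, read 7.69 to 7.91 with DMSO and 7.98 to 8.24 with celastrol (0.29, SE 0.09). Fcgr2b, the inhibitory Fc receptor, read 7.64 to 7.86 and 7.93 to 8.09 (0.26, SE 0.07). In that list of 11 measured integrin, complement and Fc receptor genes, all dim, 4 were apart and the median was 0.09. Fcer1g, the adaptor that acts in parallel to DAP12, differed by 0.19 (SE 0.06, limma adjusted p = 0.808) and Cd33, a sialic acid receptor, by 0.17 (SE 0.07, limma adjusted p = 1.00). These were the 2 of 15 measured genes of DAP12 and Fc receptor gamma signalling that passed the filter, and both had groups apart.

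Among homeostatic microglia genes, 17 were measured and 13 tested, with a median of 0.06 over the measured genes and 2 apart. Csf1r, the receptor for the survival factor CSF1, read 10.03 to 10.26 with DMSO and 10.29 to 10.39 with celastrol at 4 days (0.19, SE 0.05, limma adjusted p = 0.36). Fcrls, a microglial scavenger receptor, read 8.31 to 8.56 and 8.76 to 8.96 (0.36, SE 0.09, limma adjusted p = 0.315, the lowest of the 70 genes). At 1 day, in contrast, 3 of the 17 had all celastrol below all DMSO arrays, beside 3.06% of all genes. Of the 22 measured genes of activated microglia 14 were higher at 4 days, with a median of 0.02, and 1 was apart. That gene was the dim Cd52, named after its values were seen (0.35, SE 0.11). Of the 7 tested genes of this list 3 were higher. The tested genes with the smallest p, Cd9, a tetraspanin, and B2m, the light chain of MHC class I, were lower. They differed by a log2 value of -0.12 (SE 0.09) and -0.06 (SE 0.07), both with overlapping groups and limma adjusted p = 1.00. The leukocyte actin and oxidase list had 6 of 14 measured genes apart and a median of 0.10. There Cd53, a leukocyte tetraspanin, read 8.13 to 8.50 and 8.56 to 8.85 (0.31, SE 0.08, limma adjusted p = 0.343), and Arpc1b, a subunit of the ARP2/3 actin nucleator, differed by 0.14 (SE 0.05, limma adjusted p = 1.00). Of 8 measured myeloid transcription factors 2 were apart at a median of 0.12, and the tested one, Mef2c, differed by 0.06 (SE 0.05).

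Many cell types make the general lysosomal machinery. Of 27 measured genes of lysosomal membrane, hydrolases and acidification, 26 passed the filter, the median difference at 4 days was 0.02, and 1 had groups apart: Lipa, the acid lipase, at 9.83 to 9.87 with DMSO and 9.95 to 10.10 with celastrol (0.17, SE 0.07, limma adjusted p = 1.00). Tfeb, the transcription factor that drives lysosomal genes, differed by 0.07 (SE 0.05) with overlapping groups. Among 16 measured proteases and cystatins, of which 11 were tested, the median was 0.05 and 3 were apart. These were Ctsb at 0.07 (SE 0.04) and Lgmn, the asparaginyl endopeptidase, at 0.09 (SE 0.04), both with limma adjusted p = 1.00, and the dim Ctsc, which is named for having the largest difference of the list, 0.42 (SE 0.09). At 1 day 2 of the 16 were all below, beside 3.06% of all genes. These were again Ctsb (-0.04, SE 0.04) and Lgmn (-0.12, SE 0.04), in the opposite direction to 4 days. The galectins other than Lgals3 had 0 of 8 measured genes apart and a median of 0.03, with Lgals1 at 0.10 (SE 0.13) and Lgals9 at 0.07 (SE 0.08). The WAP domain genes other than Wfdc17 had 0 of 10 apart, a median of 0.04, and in the tested Wfdc1 a difference of 0.00 (SE 0.06).

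Markers of other cells that the dissected tissue could hold were read beside these values, from 10 lists with 69 measured genes. At 4 days limma called 0 of the 16 that were tested, with 0 at an unadjusted p under 0.05, and 0 of the 69 with no filter, with 5 at an unadjusted p under 0.05. Over all genes an unadjusted p under 0.05 was found for 3.66% with the filter and 4.03% without it. At that time 4.03% of all genes had all celastrol arrays above all DMSO arrays and 2.02% all below. For each list the intensities of its measured markers were summed on the linear scale, so bright genes weigh most. The monocyte sum is set mainly by Fn1 and Vcan, at mean log2 intensities of 10.43 and 9.82. The other measured monocyte markers read 5.38 to 6.02, so that sum says little of them. The 10 neutrophil markers summed to 1008.8 to 1037.3 with DMSO and 1042.5 to 1089.5 with celastrol at 4 days, without overlap at that time, while vehicle arrays of 6 h and 1 day reached 1089.4 and 1096.7. Of those markers 8 of 10 were higher and 1, the chemokine receptor gene Cxcr2, was apart (0.26, SE 0.12). Csf3r, the receptor for granulocyte colony-stimulating factor, and Mmp9 differed by 0.10 (SE 0.07) and 0.00 (SE 0.09), and the collagenase gene Mmp8 by 0.20 (SE 0.10). The sums overlapped for 10 border macrophage markers (1111.3 to 1237.4 and 1177.5 to 1276.0), 6 monocyte markers (2221.6 to 2739.6 and 2423.8 to 3152.5), 8 T and NK cell markers (771.2 to 804.1 and 772.7 to 860.1) and 9 dendritic cell markers (1615.2 to 1883.6 and 1694.2 to 1855.2). Of the border macrophage markers 8 of 10 were higher. Cbr2 (0.27, SE 0.09) and Mrc1, the mannose receptor gene (0.21, SE 0.10, named after its values were seen), were apart upwards and Cd209f apart downwards (-0.39, SE 0.12), while Stab1 and Lyve1 differed by 0.05 (SE 0.06) and 0.05 (SE 0.07). Of the monocyte markers 4 of 6 were higher, among them Fn1 (0.21, SE 0.19) and Vcan (0.09, SE 0.07), and Chil3 was apart downwards (-0.24, SE 0.13). No log2 value is at 0 on these arrays and no detection call was used, so an absent marker cannot be told from a dim one. The sum of 17 homeostatic microglia genes ran from 10944.3 to 11920.3 with DMSO and from 11810.7 to 12485.6 with celastrol at 4 days. Sums were higher without overlap for DAP12 signalling (3151.2 to 3315.3 and 3381.6 to 3544.7) and the Toll-like list (2901.6 to 2990.4 and 3097.9 to 3169.8). So were those of the integrin, protease, leukocyte actin and transcription factor lists, while the other lists overlapped. Except for DAP12 signalling, vehicle arrays of 6 h or 1 day passed the lowest celastrol sum. The part of these markers and lists in the differences of the 10 genes was not tested.

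Markers of tissue outside the hypothalamus were unequal between arrays. The sum of 5 pituitary markers ran from 766.2 to 1901.4 on the DMSO arrays and from 877.9 to 6482.4 on the celastrol arrays at 4 days, and reached 8992.4 on a DMSO array at 6 h. The growth hormone and prolactin genes Gh and Prl differed by 1.02 (SE 0.80) and 1.23 (SE 0.87) at 4 days, within their spread. Choroid plexus, B cell and erythroid sums overlapped, at 1278.7 to 1444.5, 348.7 to 382.6 and 410.5 to 589.2 with celastrol and 1339.6 to 1428.5, 359.7 to 370.7 and 475.2 to 578.4 with DMSO. The dim choroid plexus marker Ttr differed by -0.30 (SE 0.11) at 4 days, with overlapping groups. The 9 hypothalamic neuron markers summed to 28534.9 to 31136.9 and 28004.3 to 32146.0. The part of these markers in the differences of the 10 genes was likewise not tested.

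Whether the 10 genes varied together within groups was described from each array's deviation from its group mean, which the choice of genes by group differences did not use directly. Over 22 arrays the 45 pairs had a median r of -0.01, and 21 of them were above 0. The range went from -0.48 for Itgam with Tyrobp to 0.66 for Ly86 with Tyrobp. Trem2 and its adaptor Tyrobp had an r of 0.08, and Itgam with Ctss 0.26. Without the 2 least typical arrays the median was 0.03. Points share arrays, their normalization and the dissection, and no p is given.

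**Figure D5:**
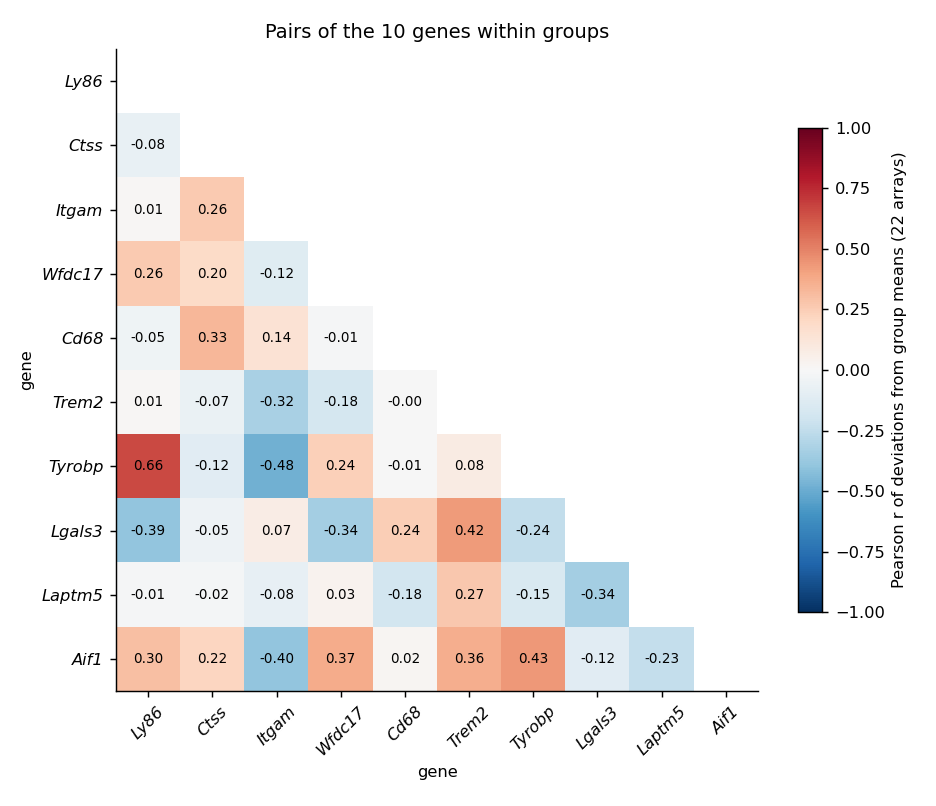
Pearson r of the deviations from group means between each pair of the 10 genes (both axes) over 22 arrays, with red for positive and blue for negative values. The highest r is that of Ly86 with Tyrobp at 0.66, and 21 of the 45 pairs are above 0.

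The genes whose deviations were most like those of the 7 tested members, by the mean r over the 7, were Mdk (0.31), Mrrf (0.30), Fam241b, Slc8b1, Slc38a3, Sdf2l1, Amz1, Cavin3, Ermn and Cd9 (0.27), out of 9873 other tested genes. For single genes the closest were Sgce (0.80) and Sumo2 (0.76) for Ly86, Efs (0.81) and Tmed3 (0.78) for Ctss, Nrip1 (0.79) and Zfp704 (0.73) for Itgam, and Omg (0.74) and Oasl2 (0.72) for Wfdc17. For the others they were Cog1 (0.87) and Fxyd1 (0.82) for Cd68, Dnajc24 (0.79) and Ppdpf (0.79) for Trem2, Ten1 (0.84) and Psmg1 (0.83) for Tyrobp, Pgls (0.83) and Gfra1 (0.78) for Lgals3, Cptp (0.87) and Tshz1 (0.86) for Laptm5, and Nfu1 (0.83) and Ndufa3 (0.78) for Aif1. Predicted genes, genes named after clones and non-coding RNAs were passed over when these closest genes were picked. The 95th percentile of r with all other tested genes lay between 0.37 and 0.52.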

How the data were processed

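RNA was labelled with a whole-transcript kit and hybridised to Affymetrix arrays, per the labels' protocols. The deposited table holds log2 intensities made by the authors with RMA, per the submitters' processing notes. RMA corrects background, quantile-normalises arrays and summarises probes, so differences are relative to each array's other genes. No source used here gives its version or the probe annotation. The deposited values cover 23492 probe sets and 22 arrays, with 0 columns of other series.

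Symbols came from the platform table: 20228 probe sets had 1 symbol, 1399 several and 1865 none. Among 18704 genes, 809 had more than 1 probe set, and the one with the highest mean was kept. The test covered 9880 genes that exceeded the array median on 3 arrays or more, and 8824 were dim. A gene can pass through 1 group alone. Groups were read from the labels. limma 3.58.1 in R 4.3.3 fitted 6 group means to all 22 arrays, two-sided, with Benjamini-Hochberg adjustment over all tested genes and a call at 0.05. It was tested on simulated data. Dim genes have no adjusted p, and their SE comes from the fit without a filter. The members' differences between celastrol and DMSO were not tested. The number of arrays limits the precision.

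The members and the gene lists were chosen with earlier results of these data known. The genes named were all members, the called genes of each pathway list or else the 2 with the smallest p at 4 days, and the genes most alike by within-group r (10 by mean r, 2 per member). From the border macrophage, monocyte and neutrophil lists the 2 most intense and the 2 smallest-p genes were named. Of such genes in the pituitary, neuron and choroid plexus lists only a part was named. No gene of the T and NK cell, B cell, dendritic cell and erythroid lists was named. Cd180, Ctsc, Cd52 and Mrc1, and the genes listed as above all 12 vehicle arrays, were named after their values were seen. Of 10 same-numbered pairs of DMSO and celastrol arrays, 2 had deviations that correlated over 0.1. Both were among the 4 pairs of 6 h, with an r of 0.176 and 0.415, against 0 of 3 pairs at either later time. Differently numbered arrays also passed 0.1, with an r of up to 0.287 at 6 h, 0.234 at 1 day and 0.289 at 4 days. Whether arrays were paired was not tested. Alternatives were other filters, probe set rules, normalisations, variance models and groups, a replicate block, and leaving out arrays. Promoters are RefSeq's, build GRCm38.p6. Figures were drawn with matplotlib 3.10.9.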

Additional observations from a re-analysis of the deposited data

Results flagged for a closer look

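In 40 groups of 4 arrays, 3 had a value far from the others by Dixon's ratio (above its 95% critical value), where chance gives about 1 in 20 groups. Ctss on celastrol 6 h replicate 4 was the lowest of its group at 9.607 (ratio 0.948), and Itgam on the same array was the lowest at 7.853 (ratio 0.898). Wfdc17 on DMSO 1 day replicate 1 was the highest of its group at 7.596 (ratio 0.84).

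In 3 genes all celastrol arrays lay on one side of the vehicle mean at one time and on the other side at another. Ly86 differed by -0.014 at 1 day and 0.497 at 4 days. Lgals3 differed by -0.187 at 6 h and 0.172 at 1 day. Laptm5 differed by -0.066 at 1 day and 0.153 at 4 days. The differences between times were not tested.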

How the results depend on the processing

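Over the alternatives, of which there were 34 (22 of them leaving out 1 array each), the median difference of the 10 genes kept within 1 SD of its value: -0.01 to 0.05 at 6 h, -0.02 to 0.04 at 1 day and 0.15 to 0.20 at 4 days. The setting of all probe sets gave no median over the 10, since dim ones are not kept there. Of 1011 alternative values for single genes and times, 3 moved beyond 1 SD: Aif1 at 1 day with array weights (0.21) and Wfdc17 at 1 day with array weights (0.14) and without the 2 least typical arrays (0.10). The small differences had no firm sign: over the alternatives 6 of the 10 genes took both signs at 6 h (Aif1, Cd68, Ctss, Ly86, Trem2 and Tyrobp), 6 at 1 day (Cd68, Itgam, Ly86, Trem2, Tyrobp and Wfdc17) and 1 at 4 days (Lgals3, -0.10 to 0.05). In the vehicle at 1 day against 6 h, 1 of the 7 tested genes, Laptm5, was called instead of 0 with a stricter filter (11 arrays), limma-trend, robust eBayes, array weights and the replicate block, and leaving out arrays gave 0 to 1. Over all tested genes the alternatives called 0 to 46 in that comparison, instead of 0. With the replicate block the medians were 0.03, -0.02 and 0.16, and the adjusted p of Laptm5 was 0.0199. That block changed no other call among the 10 genes or the lists. The pathway lists had 0 called genes under all alternatives run, of which only the groups compared gave no average over times. The array weights stopped before reaching their tolerance.

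Counts over all tested genes moved more. At 4 days of celastrol 5 genes became 0 with the replicate block or all probe sets, 1 with robust eBayes, 3 with no filter, with quantile normalisation again or without the 2 least typical arrays, 8 with limma-trend and 16 with array weights. Leaving out single arrays gave 0 to 9. In the vehicle, 0 genes at 1 day against 6 h became 0 to 46, 25 at 4 days against 6 h became 0 to 147, and 15 at 4 days against 1 day became 0 to 168. The cause was not tested.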
